A study of Mus musculus with 23 samples.

Results

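The 52 genes described here encode proteins of mitosis and chromosome segregation, the steps in which a cell condenses its chromosomes, attaches them to a spindle, separates them and divides. They were taken by gene symbol from a table of 21900 protein-coding genes, and every symbol was found once. The samples were ovalbumin-specific T cells of C57BL/6 mice: OT-I CD8 T cells, whose transgenic receptor sees an ovalbumin peptide on MHC class I, and OT-II CD4 T cells, whose transgenic receptor sees one on MHC class II. Both had been transferred into wild-type mice, which received 1 of 4 treatments on day 1 after transfer: saline, 1 µg of A8B1-OVA, ovalbumin (OVA) in a molar-equivalent amount, or a higher dose of OVA. What A8B1 is, is not explained in the sources used here, although the series' title speaks of targeting erythrocytes. On day 5 the transferred cells were sorted by flow cytometry from pooled spleens and lymph nodes, and each library holds the RNA of 3 mice. There were 3 libraries in each of the 8 groups except higher-dose OVA in OT-II cells, which had 2, making 23 in all. The sources used here name no age or sex of the mice and no sort gate.

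Entry into mitosis is driven by the kinase Cdk1 bound to cyclins A and B, and is carried through by the Polo-like and Aurora kinases. Kinetochores built on centromeres capture spindle microtubules, and the spindle checkpoint holds the anaphase-promoting complex back until every chromosome is attached. That complex then marks cyclin B and securin for destruction, separase opens the cohesin rings that hold sister chromatids together, and kinesins, the central spindle and the cytokinetic ring finish the division. Most of these genes are transcribed late in the cell cycle, and a naive T cell in the G0 state makes little of their RNA until antigen drives it to divide.

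The libraries held 26584040 to 73503642 estimated counts, so that 3 counts corresponded to 0.0408 to 0.113 CPM, counts scaled per library size and the unit of every level below unless another is given. Cd3d, Cd3e and Cd3g summed to 2510 to 3210 CPM in every library. The CD8 lineage markers Cd8a and Cd8b1 summed to 2390 to 3900 CPM in OT-I and 27 to 60.1 CPM in OT-II libraries, and the CD4 lineage markers Cd4 and Zbtb7b to 638 to 789 CPM in OT-II and 1.99 to 16.8 CPM in 11 of the 12 OT-I libraries. The exception was OT-I higher-dose replicate 1, with 199 CPM. B cell, myeloid and erythroid marker sums were raised in some control libraries: 519, 818 and 644 CPM in OT-I molar-equivalent replicate 2, 147, 323 and 281 CPM in OT-I saline replicate 1, and 188, 540 and 1120 CPM in OT-II saline replicate 1, with a B cell sum of 209 CPM in OT-II molar-equivalent replicate 3. These 4 and OT-I higher-dose replicate 1 are the 5 libraries of raised marker sums that were left out together where stated. OT-II saline replicate 3, with an erythroid sum of 715 CPM, was not among them and was left out only on its own. Counts of called members after leaving out libraries stand below without the share of all genes called in the same fit. The defining B cell gene Pax5 was at 0 in 4 libraries, and the erythroid genes Epor in 2 and Slc4a1 in 4.

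In OT-I CD8 T cells the mitotic genes rose almost as a block after A8B1-OVA. Of the 52, 47 were higher than after saline and 0 lower, at an adjusted p under 0.05 in edgeR's quasi-likelihood test with Benjamini-Hochberg adjustment over all 14080 genes tested, of which 7.07% were called higher. The median log2 fold change of the 52 was 3.33, beside -0.021 over all tested genes, and 33 of the genes rose more than 8-fold. The 5 members without a call were Pttg1, Kif23, Racgap1, Smc2 and Smc4. Against molar-equivalent OVA, 47 of 52 members were again higher and 0 lower, with a median log2 fold change of 3.01 beside -0.022 over all genes and 6.56% of all genes called higher. Within each library the median member stood at 46.3, 71.6 and 24.5 CPM in OT-I A8B1-OVA replicates 1 to 3, against 3.97 to 4.17 CPM after saline, 4.28 to 7.97 after molar-equivalent OVA and 10.2 to 21.2 after higher-dose OVA. In bulk RNA, more cells that express these genes and more of their RNA per cell cannot be told apart. The p-values measure the spread between libraries of pooled mice. No marker list of another cell type had a gene called between OT-I A8B1-OVA and saline, and 45 members were called without the 5 libraries of raised marker sums. Against molar-equivalent OVA 1 of 9 myeloid and 1 of 4 NK cell markers were called lower, and their part in the result was not tested. Without the 5 libraries 46 members were called there. No share of all genes is given beside the counts of 45 and 46.

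**Figure D1:**
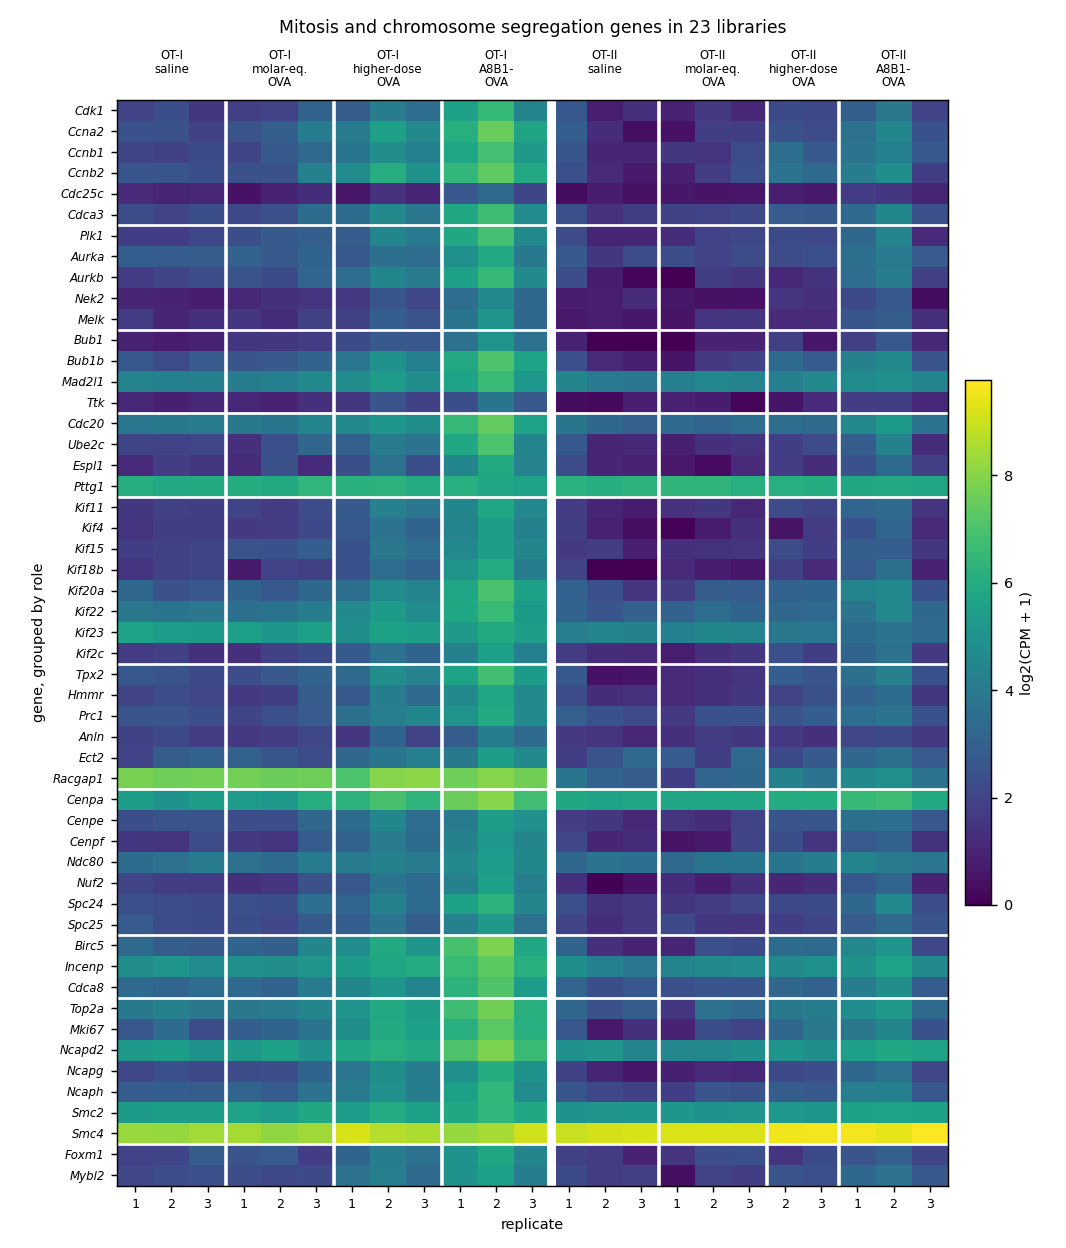
Level of each of the 52 mitotic genes (lines of the heat map, grouped by role) in each of the 23 libraries (columns, OT-I left and OT-II right), as log2(CPM + 1). The 3 OT-I A8B1-OVA columns are brightest for most genes. Racgap1, Smc2, Smc4, Pttg1 and Kif23 are already bright in OT-I saline, and the called genes Cenpa and Ncapd2 are nearly as bright there as Smc2 and Kif23.

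**Figure D2:**
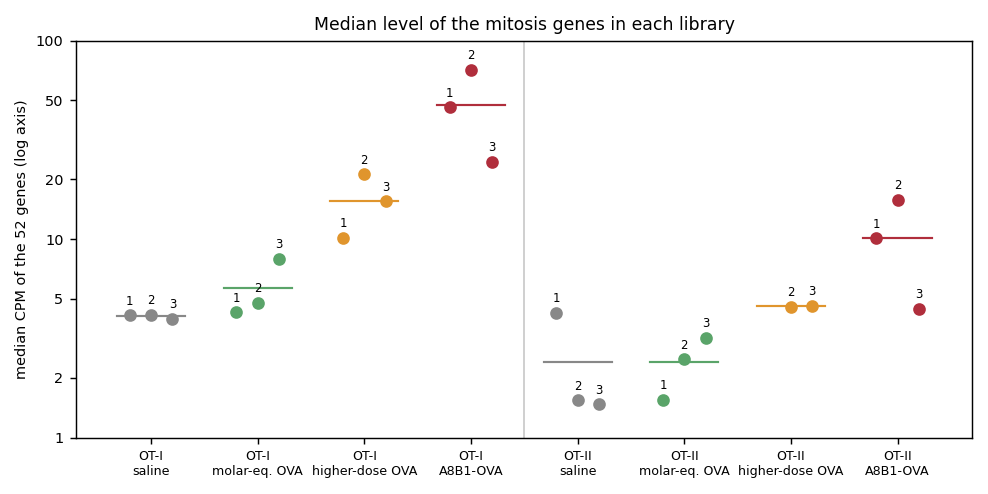
Median level over the 52 genes in each library, in CPM on a log axis, by treatment and cell type. Points are libraries with their replicate number and the line is the group mean. OT-I A8B1-OVA libraries lie between 24.5 and 71.6 CPM and OT-I saline libraries between 3.97 and 4.17, while OT-II A8B1-OVA replicate 3, at 4.46, lies level with OT-II saline replicate 1 at 4.25.

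All 6 genes of the cyclin and Cdk1 group rose in OT-I cells after A8B1-OVA, with a median log2 fold change of 4.25 over saline. Levels of a group are given by replicate number, 1 to 3 or, for OT-II higher-dose OVA, 2 and 3. Cdk1, the kinase that starts mitosis, was at 47.7, 91 and 20.4 CPM after A8B1-OVA, 3.03, 4.13 and 2 after saline, 2.57, 2.89 and 7.65 after molar-equivalent OVA and 6.38, 16 and 10.5 after higher-dose OVA. Every A8B1-OVA library lay above every other OT-I library, and the log2 fold change over saline was 4.10 ± 0.59 (SE, edgeR adjusted p = 0.00077). Ccnb1, which encodes the cyclin B1 partner of Cdk1, was at 54.2, 114 and 36.9 CPM after A8B1-OVA, 3.11, 2.82 and 3.63 after saline, 3.07, 5.89 and 9.23 after molar-equivalent OVA and 13, 26.5 and 17.8 after higher-dose OVA. The A8B1-OVA libraries of Ccnb1 did not overlap with the rest, with a log2 fold change over saline of 4.41 ± 0.48 (SE, edgeR adjusted p = 0.000139). Ccna2, encoding cyclin A2, had the largest log2 fold change of the 52 in this comparison, 4.69 ± 0.61 (SE, edgeR adjusted p = 0.00039). Cdc25c, a phosphatase that activates Cdk1, rose least of the 6, by 2.31 ± 0.53 (SE), with an edgeR adjusted p of 0.0135.

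All 5 mitotic kinases rose, with a median of 3.93. Plk1, the Polo-like kinase needed for a bipolar spindle, was at 56.2, 113 and 24.2 CPM after A8B1-OVA, 2.48, 2.42 and 3.32 after saline, 4.07, 5.82 and 6.76 after molar-equivalent OVA and 6.35, 21.2 and 15.4 after higher-dose OVA. The lowest A8B1-OVA library, replicate 3, stood only slightly above the highest higher-dose library, and the log2 fold change over saline was 4.55 ± 0.55 (SE, edgeR adjusted p = 0.000253). Aurkb, the kinase of the chromosomal passenger complex that corrects faulty kinetochore attachments, was at 46.9, 91.2 and 24.8 CPM after A8B1-OVA, 2.34, 3.12 and 3.89 after saline, 4.84, 3.63 and 8.01 after molar-equivalent OVA and 10.3, 21.3 and 15.5 after higher-dose OVA. Here too A8B1-OVA replicate 3 was the lowest of its group and still above all 9 libraries of the other treatments, and the log2 fold change was 4.11 ± 0.47 (SE, edgeR adjusted p = 0.00019). The other passenger genes Birc5 (survivin), Cdca8 (borealin) and Incenp (the scaffold) all rose, with a median of 3.16. Birc5 was at 121, 226 and 55.3 CPM after A8B1-OVA, 9.16, 6.44 and 5.55 after saline, 7.84, 6.82 and 21.5 after molar-equivalent OVA and 26.3, 60.6 and 33.4 after higher-dose OVA. Its A8B1-OVA replicate 3 lay below the highest higher-dose library and above every saline and molar-equivalent library. The log2 fold change of Birc5 over saline was 4.23 ± 0.57 (SE, edgeR adjusted p = 0.000476).

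The 4 spindle checkpoint genes rose with a median of 3.37, unevenly. Bub1b, which encodes the BubR1 component of the inhibitor of the anaphase-promoting complex, was at 57.9, 131 and 49.3 CPM after A8B1-OVA, 5.42, 3.76 and 6.02 after saline, 4.97, 5.63 and 7.53 after molar-equivalent OVA and 13.3, 30.9 and 17.6 after higher-dose OVA. The A8B1-OVA libraries did not overlap with any other OT-I library, and the log2 fold change over saline was 3.96 ± 0.41 (SE, edgeR adjusted p = 0.000111). Mad2l1, which encodes the Mad2 subunit of the same inhibitor, started from a higher level and was at 49.6, 94.7 and 36 CPM after A8B1-OVA, 19.5, 18.6 and 17.9 after saline, 16.7, 17.3 and 24 after molar-equivalent OVA and 26, 40.5 and 26.4 after higher-dose OVA. It rose by less, 1.67 ± 0.30 (SE, edgeR adjusted p = 0.00341), and its lowest A8B1-OVA library lay within the range of the higher-dose libraries. Bub1, a checkpoint kinase, had the lowest adjusted p of the 52 genes, with a log2 fold change of 4.42 ± 0.42 (SE, edgeR adjusted p = 7.92e-05).

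Among the 4 anaphase genes 3 rose and 1 did not. Cdc20, the activator that the checkpoint restrains, was at 89.1, 169 and 50.02 CPM after A8B1-OVA, 13.2, 14.3 and 14.7 after saline, 14.4, 12.7 and 20.01 after molar-equivalent OVA and 23.3, 34.3 and 27.7 after higher-dose OVA. All A8B1-OVA libraries were above all others, with a log2 fold change over saline of 2.85 ± 0.35 (SE, edgeR adjusted p = 0.000271). Ube2c, the ubiquitin-conjugating enzyme of the anaphase-promoting complex, rose by 4.42 ± 0.67 and Espl1, which encodes separase, by 4.12 ± 0.63 (SE, edgeR adjusted p = 0.00104 and 0.00122). Pttg1, which encodes securin, the inhibitor of separase, was at 68.4, 53.5 and 48 CPM after A8B1-OVA, 66.1, 58.8 and 61.8 after saline, 65.9, 59.99 and 84.1 after molar-equivalent OVA and 71.7, 77 and 63.4 after higher-dose OVA. These groups overlapped, and its log2 fold change over saline was -0.15 ± 0.16 (SE, edgeR adjusted p = 0.597). Whether Espl1 and Pttg1 responded differently was not tested.

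Of the 8 kinesins 7 rose, with a median of 3.56. Kif11, the motor Eg5 that pushes spindle poles apart, was at 21.1, 53.7 and 22.6 CPM after A8B1-OVA, 2.01, 2.68 and 2.49 after saline, 2.9, 2.3 and 3.72 after molar-equivalent OVA and 5.72, 18 and 13.3 after higher-dose OVA. Its 3 A8B1-OVA libraries lay above every other OT-I library, with a log2 fold change over saline of 3.75 ± 0.45 (SE, edgeR adjusted p = 0.000248). Kif20a, which carries the passenger complex to the central spindle, was at 53.9, 122 and 46.1 CPM after A8B1-OVA, 8.85, 4.34 and 5.31 after saline, 7.78, 5.48 and 8.49 after molar-equivalent OVA and 10.6, 25.3 and 19.8 after higher-dose OVA. The A8B1-OVA group again did not overlap with the others and the log2 fold change was 3.57 ± 0.43 (SE, edgeR adjusted p = 0.000251). Kif23, the motor subunit of the centralspindlin complex that organises the midzone before cytokinesis, was the kinesin without a call. It was at 38.4, 60.4 and 43 CPM after A8B1-OVA, 49.4, 41.4 and 39.2 after saline, 44.6, 33.7 and 44.8 after molar-equivalent OVA and 28.3, 45.6 and 41.8 after higher-dose OVA. The ranges overlapped in all 4 treatments, and the log2 fold change over saline was 0.11 ± 0.21 (SE, edgeR adjusted p = 0.77).

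Racgap1, the other subunit of centralspindlin, was the exception among the 6 spindle assembly and cytokinesis genes. It was at 195, 251 and 198 CPM after A8B1-OVA, 218, 194 and 203 after saline, 204, 186 and 195 after molar-equivalent OVA and 127, 255 and 265 after higher-dose OVA. Its A8B1-OVA and saline libraries overlapped, with a log2 fold change of 0.06 ± 0.22 (SE, edgeR adjusted p = 0.9). Both centralspindlin genes were therefore without a call, while Prc1, which bundles the midzone microtubules, rose by 3.08 ± 0.36 and Ect2, a cytokinesis factor that binds centralspindlin, by 2.27 ± 0.43 (SE, edgeR adjusted p = 0.000218 and 0.00491). Tpx2, a spindle assembly factor that activates Aurora A, rose by 3.85 ± 0.45, with an edgeR adjusted p of 0.00022.

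All 7 centromere and kinetochore genes rose, with a median of 2.68. Cenpa, the histone H3 variant that marks centromeres, was at 183, 252 and 109 CPM after A8B1-OVA, 42.9, 31.2 and 42.8 after saline, 40.7, 35.7 and 67.2 after molar-equivalent OVA and 79.4, 120.3 and 81.6 after higher-dose OVA. The lowest A8B1-OVA library lay inside the higher-dose range and above all saline and molar-equivalent libraries, and the log2 fold change over saline was 2.21 ± 0.31 (SE, edgeR adjusted p = 0.000645). The 4 subunits of the Ndc80 complex, which grips microtubules, rose by different amounts: log2 fold changes were 1.21 for Ndc80, 3.35 for Nuf2, 3.65 for Spc24 and 2.33 for Spc25. Ndc80 itself was at 23, 41 and 21.4 CPM after A8B1-OVA, 9.94, 11.8 and 14.8 after saline, 11.7, 9.56 and 15.8 after molar-equivalent OVA and 14.9, 18.7 and 15.4 after higher-dose OVA. A8B1-OVA replicate 3 exceeded the highest other library by little, and the change over saline was 1.21 ± 0.26 (SE, edgeR adjusted p = 0.0105).

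In the chromosome structure group, 5 of 7 genes rose. The non-SMC subunits Ncapd2, Ncapg and Ncaph of condensin I rose, with log2 fold changes of 2.03, 3.51 and 3.03. Smc2, an ATPase subunit shared by condensins I and II, was at 54.7, 85.8 and 56.6 CPM after A8B1-OVA, 38.9, 43.3 and 42.9 after saline, 48.7, 40.6 and 55 after molar-equivalent OVA and 41.6, 62.7 and 45.4 after higher-dose OVA. The 3 A8B1-OVA libraries were above the 3 saline libraries but overlapped with the OVA groups, and the log2 fold change over saline, 0.64 ± 0.20 (SE, edgeR adjusted p = 0.0509), narrowly missed the threshold. Smc4, the partner of Smc2, was at 296, 356 and 538 CPM after A8B1-OVA, 303, 299.6 and 342 after saline, 349, 279 and 333 after molar-equivalent OVA and 574, 409.98 and 379.9 after higher-dose OVA. Its A8B1-OVA values overlapped with those of every other treatment, and the log2 fold change was 0.32 ± 0.21 (SE, edgeR adjusted p = 0.355). The 574 CPM belongs to higher-dose replicate 1, the OT-I library with 199 CPM of CD4 lineage markers. Whether the subunits responded differently was not tested.

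Top2a, the topoisomerase that untangles sister chromatids, was at 105, 198 and 69.95 CPM after A8B1-OVA, 14.5, 18 and 13.7 after saline, 14, 14.9 and 20.7 after molar-equivalent OVA and 32.2, 58 and 42.7 after higher-dose OVA. No A8B1-OVA library overlapped with another treatment, and the log2 fold change over saline was 3.00 ± 0.34 (SE, edgeR adjusted p = 0.000188). Mki67, the Ki-67 antigen of cycling cells, was at 71.1, 153 and 70.9 CPM after A8B1-OVA, 5.22, 9.58 and 3.72 after saline, 6.62, 7.97 and 12.4 after molar-equivalent OVA and 28, 61.2 and 44.5 after higher-dose OVA. Its higher-dose libraries came closest to A8B1-OVA, at up to 61.2 CPM against a lowest A8B1-OVA value of 70.9, and the change of A8B1-OVA over saline was 3.98 ± 0.44 (SE, edgeR adjusted p = 0.000165).

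The 2 transcription factors of the list, which activate other late cell cycle genes, both rose. Foxm1 was at 30.4, 57.3 and 21 CPM after A8B1-OVA, 2.94, 3.16 and 6.46 after saline, 5.01, 5.97 and 2.41 after molar-equivalent OVA and 7.92, 16.7 and 12 after higher-dose OVA, with a log2 fold change over saline of 3.11 ± 0.46 (SE, edgeR adjusted p = 0.000992). Mybl2, or B-Myb, was at 31.2, 44.5 and 16.7 CPM after A8B1-OVA, 3.23, 3.76 and 4.27 after saline, 3.85, 3.3 and 3.51 after molar-equivalent OVA and 11.5, 17 and 9.46 after higher-dose OVA, with a log2 fold change of 3.02 ± 0.33 (SE, edgeR adjusted p = 0.000139). Neither gene's A8B1-OVA libraries overlapped with saline, although A8B1-OVA replicate 3 of Mybl2 lay just below higher-dose replicate 2.

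**Figure D3:**
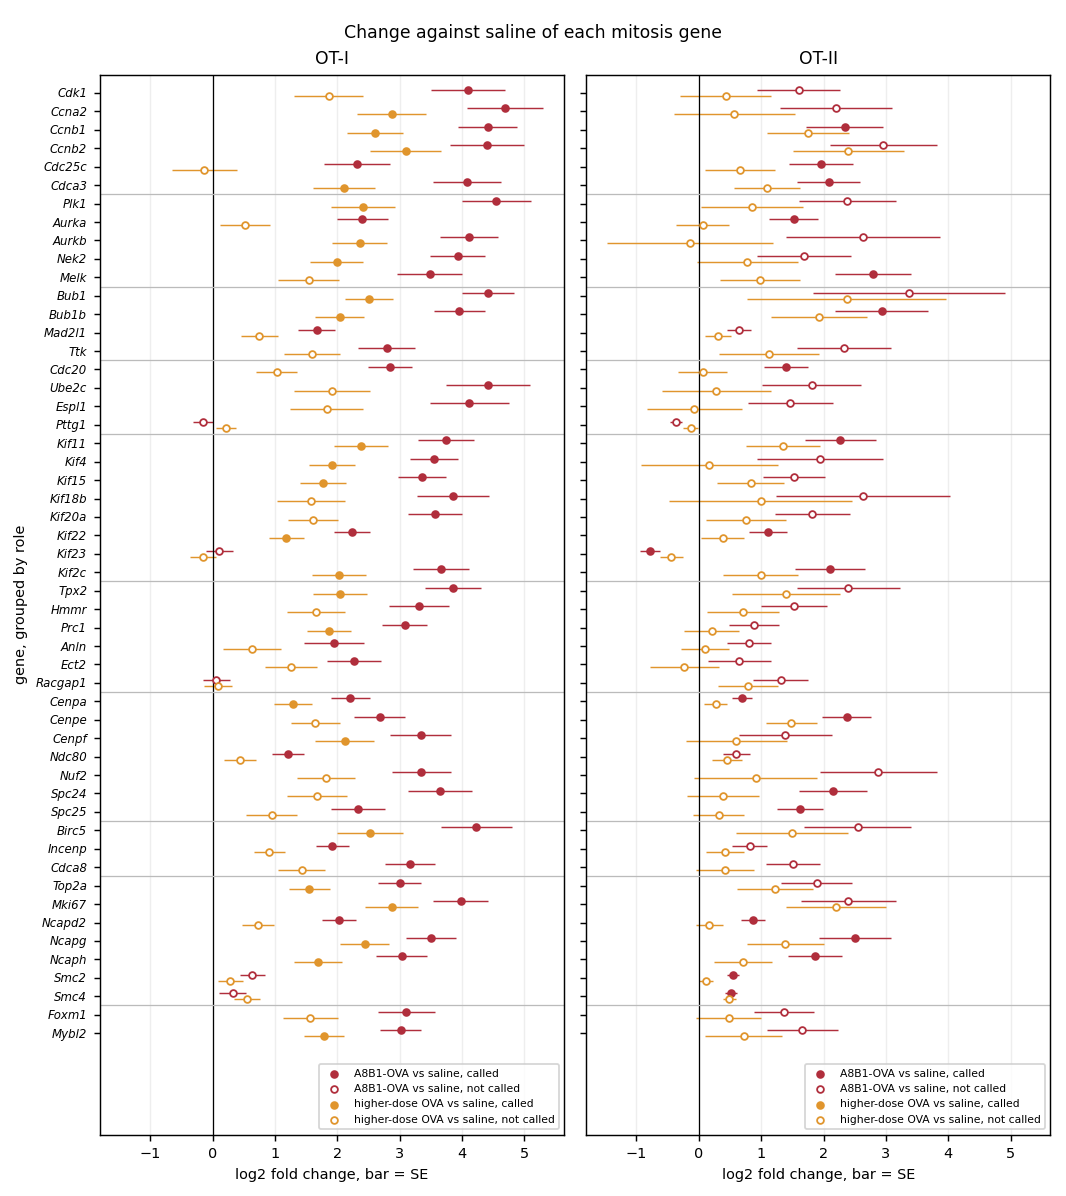
Log2 fold change ± SE of each of the 52 genes over saline, for A8B1-OVA and for higher-dose OVA, in OT-I (left) and OT-II (right). Filled points passed an adjusted p under 0.05. In OT-I, 47 genes are filled for A8B1-OVA and 24 for higher-dose OVA. In OT-II, 20 are filled for A8B1-OVA, 1 of them, Kif23, below 0, and 0 for higher-dose OVA.

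The 5 members without a call in OT-I cells were among those with higher levels after saline, set per kilobase of all annotated exons of the gene. They were not fully apart from the called genes. That length joins the exons of every annotated transcript, so genes can be compared only roughly. In OT-I saline libraries their mean levels ran from 5.49 to 60.4 CPM per kb with a median of 29, against 0.162 to 7.55 with a median of 0.95 for the 47 called genes. Smc4, Pttg1, Racgap1 and Smc2 held the 4 highest levels of the 52, although Smc2, at 7.61, was barely above the called gene Cdc20, at 7.55. Kif23, at 5.49, lay below Cdc20 and below the called genes Cenpa, Incenp and Ncapd2, at 6.65, 6.54 and 5.84. After A8B1-OVA the ranges ran from 5.98 to 76.1 CPM per kb for the 5 and from 1.19 to 66.6 for the 47. These levels use the saline libraries that also enter the fold change, so they are a description only.

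**Figure D4:**
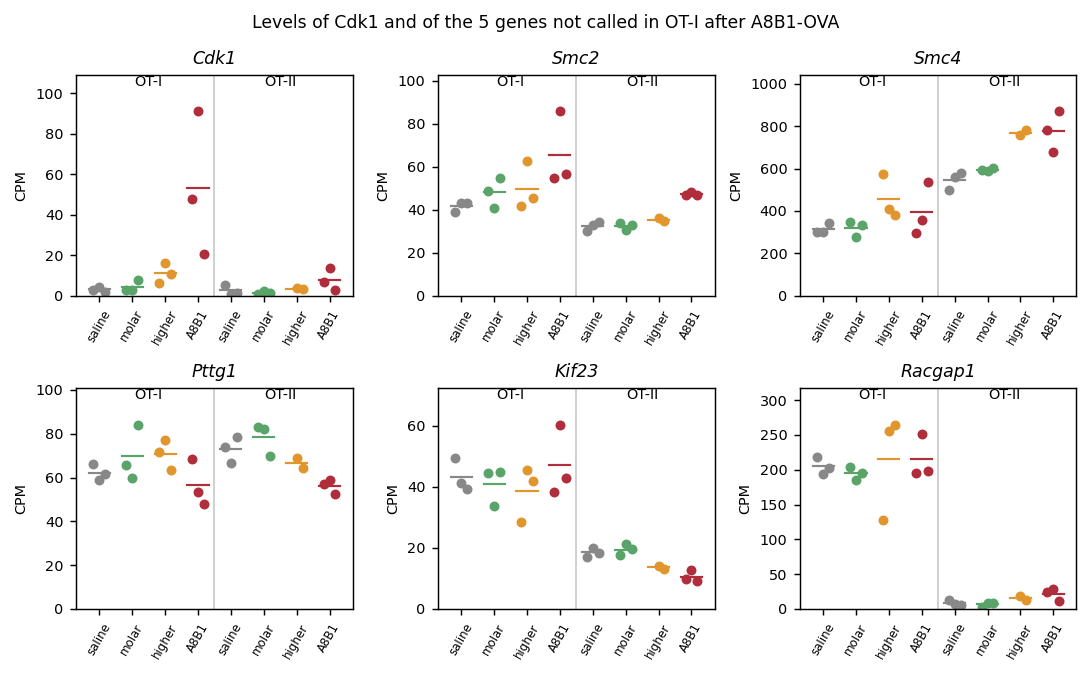
Level in CPM in every library of Cdk1, as an example of a called gene, and of Smc2, Smc4, Pttg1, Kif23 and Racgap1, which were not called in OT-I A8B1-OVA against saline. Points are libraries, by treatment and cell type. Racgap1 lies at 127 to 265 CPM in all OT-I libraries and at 2.56 to 28.7 in all OT-II libraries. Its lowest OT-I value is that of higher-dose replicate 1, the OT-I library with raised CD4 lineage markers.

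Higher-dose OVA was also followed by a rise in OT-I cells. Against saline 24 members were higher and 0 lower, where 1.97% of all genes were called higher, and the median log2 fold change was 1.67 beside -0.003 over all genes. In 35 of the 52 every higher-dose library lay above every saline and molar-equivalent library, a count that was not made over all genes. The largest changes were in the cyclins and the proliferation antigen: log2 fold changes were 3.10 for Ccnb2, 2.87 for Ccna2, 2.87 for Mki67, 2.60 for Ccnb1 and 2.53 for Birc5. The anaphase genes did not pass, with log2 fold changes of 1.03 for Cdc20, 1.91 for Ube2c, 1.83 for Espl1 and 0.21 for Pttg1. Cdc25c had a log2 fold change of -0.13 ± 0.52 (SE, edgeR adjusted p = 0.967) and Aurka, the spindle pole kinase, a change of 0.52 ± 0.40 (SE, edgeR adjusted p = 0.714). The number of called members moved when single libraries were left out, and did so whichever saline library it was. It was 3 without saline replicate 1, 2 or 3 and without higher-dose replicate 2, and 11 without higher-dose replicate 3. Against molar-equivalent OVA, 7 members were higher after higher-dose OVA, namely Bub1b, Kif11, Kif4, Prc1, Mki67, Ncapg and Mybl2, with a median log2 fold change over the 52 of 1.37 beside -0.008 over all genes and 0.838% of all genes called higher. That count was 0 without molar-equivalent replicate 1 or higher-dose replicate 2, and 1 without molar-equivalent replicate 2 or higher-dose replicate 3. For the fits with a library left out, the shares of all genes called are not given.

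Molar-equivalent OVA gave 0 called members against saline in OT-I cells by edgeR and by DESeq2, where edgeR called 0% of all genes higher. At an unadjusted p under 0.05 there were 3 members, and the share of all genes at that level is not given. Over the 52 genes the median log2 fold change was 0.23 beside 0.01 over all genes. The highest was Bub1, at 1.28 ± 0.38 (SE), and the lowest Cdc25c, at -0.39 ± 0.52.

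A8B1-OVA and higher-dose OVA also differed from each other in OT-I cells. Of the 52 genes 20 were higher after A8B1-OVA and 0 lower, where 1.63% of all genes were called higher, with a median log2 fold change of 1.53 beside -0.025. The 20 were drawn from every role except the transcription factors: Cdk1, Ccnb1 and Cdc25c; Plk1, Aurka, Aurkb and Nek2; Bub1 and Bub1b; Cdc20 and Ube2c; Kif4, Kif15, Kif18b and Kif20a; and Tpx2, Spc24, Cdca8, Top2a and Ncapd2. The largest log2 fold changes were those of Ube2c, 2.52 ± 0.61 (SE, edgeR adjusted p = 0.0497), and of Cdc25c, 2.44 ± 0.54 (SE, edgeR adjusted p = 0.0385), and the lowest adjusted p was that of Cdc20, 1.82 ± 0.34 (SE, edgeR adjusted p = 0.0187). Mki67 was not among the 20, at 1.11 ± 0.39 (SE, edgeR adjusted p = 0.154). All 3 of its A8B1-OVA libraries lay above all 3 higher-dose libraries, as did those of 36 members in all. How many of all genes did so was not counted. The number of called members, 20, too moved with single libraries. It was 4 without A8B1-OVA replicate 1, 0 without A8B1-OVA replicate 2, 39 without A8B1-OVA replicate 3, 0 without higher-dose replicate 1, 7 without higher-dose replicate 2 and 0 without higher-dose replicate 3. Shares of all genes called in these fits are not given. The median log2 fold change without A8B1-OVA replicate 2 was 1.02. Higher-dose replicate 1 was the OT-I library with 199 CPM of CD4 lineage markers, and the part of those cells in the result was not tested.

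The replicates of 1 treatment differed from each other in the same way for most of the genes. Of all 12 OT-I libraries, A8B1-OVA replicate 2 held the highest value for 49 of the 52. Replicate 2 exceeded replicate 1 and replicate 1 exceeded replicate 3 for 39 of 52 in OT-I cells and for 46 of 52 in OT-II cells. The highest of the 3 OT-I A8B1-OVA libraries was a median of 2.67 times the lowest, from 1.29 to 6.42 times over the genes, and in OT-II 3.62 times, from 1.03 to 20.7. The genes share these libraries, so their orders are not independent of each other. Neither the orders nor the highest libraries were counted over all genes, so they cannot be called particular to these 52.

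In OT-II CD4 T cells 20 of the 52 genes changed after A8B1-OVA. Against saline 19 were higher, where 4.4% of all 14757 tested genes were called higher, and 1, Kif23, was lower, where 2.88% were called lower. The count of 1 lower is too small to be set apart from that share. The median log2 fold change was 1.75 beside -0.011 over all genes. The median member stood at 10.1, 15.8 and 4.46 CPM in A8B1-OVA replicates 1 to 3, at 4.25, 1.54 and 1.47 after saline, at 1.55, 2.48 and 3.18 after molar-equivalent OVA, and at 4.57 and 4.61 in the 2 higher-dose libraries. Replicates 1 and 2 after A8B1-OVA exceeded all OT-II libraries of the other treatments for 47 and 48 of the genes, and replicate 3 for 8. In 29 of the 52 the A8B1-OVA and saline libraries overlapped. These counts by library ranges were not made over all genes.

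Among the entry genes and kinases in OT-II cells, 3 of 6 and 2 of 5 rose. Cdk1 was at 6.79, 13.7 and 2.92 CPM after A8B1-OVA, 5.5, 0.784 and 1.56 after saline, 0.887, 2.1 and 1.15 after molar-equivalent OVA and 3.61 and 3.36 after higher-dose OVA. Replicate 3 after A8B1-OVA lay below saline replicate 1, and the log2 fold change of 1.60 ± 0.67 (SE, edgeR adjusted p = 0.189) did not pass. Ccnb1 was at 12.7, 17.7 and 5.43 CPM after A8B1-OVA, 5.12, 1.06 and 1.05 after saline, 2.01, 1.82 and 3.83 after molar-equivalent OVA and 10.4 and 5.7 after higher-dose OVA. Its lowest A8B1-OVA library lay just above the highest saline library and the log2 fold change was 2.34 ± 0.62 (SE, edgeR adjusted p = 0.0427). Plk1 was at 8.84, 19.5 and 1.28 CPM after A8B1-OVA, 3.75, 1.03 and 1.03 after saline, 1.4, 2.89 and 3.25 after molar-equivalent OVA and 3.61 and 3.3 after higher-dose OVA. Replicate 3 again overlapped with saline, and the log2 fold change was 2.38 ± 0.78 (SE, edgeR adjusted p = 0.0892). Aurkb was at 10.3, 16 and 2.61 CPM after A8B1-OVA, 3.9, 0.735 and 0.107 after saline, 0, 2.48 and 1.92 after molar-equivalent OVA and 1.12 and 1.71 after higher-dose OVA. The spread within its groups was wide, with molar-equivalent replicate 1 at 0, and the change over saline was 2.63 ± 1.23 (SE, edgeR adjusted p = 0.246).

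Checkpoint and anaphase genes in OT-II cells passed for 1 of 4 and 1 of 4. Bub1b was at 18, 24.2 and 4.78 CPM after A8B1-OVA, 4.21, 1.27 and 0.793 after saline, 0.479, 2.08 and 2.73 after molar-equivalent OVA and 9.69 and 6.21 after higher-dose OVA. Each A8B1-OVA library exceeded all saline libraries, replicate 3 by a small margin, and it rose by 2.93 ± 0.74 (SE, edgeR adjusted p = 0.0336), the largest change among the called genes. Bub1 was at 2.62, 5.46 and 1.1 CPM after A8B1-OVA, 0.907, 0 and 0 after saline, 0, 0.931 and 0.978 after molar-equivalent OVA and 2.59 and 0.505 after higher-dose OVA, with a change of 3.37 ± 1.54 (SE, edgeR adjusted p = 0.234). Mad2l1 was at 25.9, 30.1 and 20.4 CPM after A8B1-OVA, 20.6, 14.9 and 13.9 after saline, 17.7, 22.3 and 19.6 after molar-equivalent OVA and 17.8 and 23.1 after higher-dose OVA. These groups overlapped, with a log2 fold change of 0.64 ± 0.19 (SE, edgeR adjusted p = 0.0655). Cdc20 was at 23.1, 39.4 and 12.1 CPM after A8B1-OVA, 13.1, 8.53 and 6.96 after saline, 9.12, 8.22 and 10.4 after molar-equivalent OVA and 10.6 and 9.33 after higher-dose OVA. A8B1-OVA replicate 3 was below saline replicate 1, while the gene as a whole rose by 1.40 ± 0.35 (SE, edgeR adjusted p = 0.0309). Pttg1 was at 57.1, 58.7 and 52.5 CPM after A8B1-OVA, 74.1, 66.6 and 78.4 after saline, 82.9, 82.3 and 69.99 after molar-equivalent OVA and 69.1 and 64.6 after higher-dose OVA. All 3 of its A8B1-OVA libraries were below every other OT-II library. Its log2 fold change was -0.37 ± 0.10 (SE, edgeR adjusted p = 0.0536) against saline, which did not pass, and -0.47 ± 0.10 (SE, edgeR adjusted p = 0.0185) against molar-equivalent OVA, which did.

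Kinesin genes in OT-II cells rose for 3 of 8 and fell for 1. Kif11 was at 8.01, 9.5 and 1.88 CPM after A8B1-OVA, 2.34, 1.01 and 0.728 after saline, 1.6, 1.96 and 1.18 after molar-equivalent OVA and 3.89 and 3.03 after higher-dose OVA, with a log2 fold change over saline of 2.27 ± 0.57 (SE, edgeR adjusted p = 0.031) and an overlap at A8B1-OVA replicate 3. Kif20a was at 19.6, 22.6 and 4.48 CPM after A8B1-OVA, 7.51, 4.2 and 1.74 after saline, 2.41, 6.28 and 6.11 after molar-equivalent OVA and 7.35 and 7.8 after higher-dose OVA, with a change of 1.82 ± 0.60 (SE, edgeR adjusted p = 0.0917) that did not pass. Kif23 was at 9.98, 12.7 and 9.17 CPM after A8B1-OVA, 17.2, 19.9 and 18.5 after saline, 17.6, 21.2 and 19.6 after molar-equivalent OVA and 14 and 13.2 after higher-dose OVA. Every A8B1-OVA library of Kif23 lay below every other OT-II library, and it fell, with a log2 fold change of -0.79 ± 0.16 (SE, edgeR adjusted p = 0.0105) against saline and -0.86 ± 0.16 (SE, edgeR adjusted p = 0.00747) against molar-equivalent OVA. Its partner Racgap1 was at 24.1, 28.7 and 12.2 CPM after A8B1-OVA, 12.9, 7.24 and 6.4 after saline, 2.56, 8.04 and 8.74 after molar-equivalent OVA and 18.3 and 12.2 after higher-dose OVA. That gene's change was 1.31 ± 0.44 (SE, edgeR adjusted p = 0.098) over saline, which did not pass, and 1.76 ± 0.44 (SE, edgeR adjusted p = 0.0356) over molar-equivalent OVA, which did. The other spindle assembly and cytokinesis genes were not called over saline, with Tpx2 at 2.40 ± 0.82 and Prc1 at 0.88 ± 0.40 (SE).

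Centromere and kinetochore genes in OT-II cells rose for 4 of 7. Cenpe, the kinesin that moves chromosomes to the spindle equator, was at 11.2, 11 and 5.29 CPM after A8B1-OVA, 2.22, 1.98 and 1.16 after saline, 1.76, 1.35 and 2.99 after molar-equivalent OVA and 4.84 and 5.11 after higher-dose OVA. Its A8B1-OVA libraries exceeded every library of the other treatments, and it had the lowest adjusted p of the members over saline, with a log2 fold change of 2.37 ± 0.39 (SE, edgeR adjusted p = 0.00354). Cenpa was at 91.4, 103 and 59.8 CPM after A8B1-OVA, 56, 49.4 and 54.2 after saline, 53.9, 54.3 and 52 after molar-equivalent OVA and 63.8 and 65 after higher-dose OVA, where A8B1-OVA lay above saline and molar-equivalent OVA and the change was 0.69 ± 0.16 (SE, edgeR adjusted p = 0.0215). Ndc80 was at 20.1, 15.2 and 13.2 CPM after A8B1-OVA, 8.98, 12.5 and 10.8 after saline, 9.19, 12.9 and 13 after molar-equivalent OVA and 13 and 16.5 after higher-dose OVA, with a change of 0.60 ± 0.22 (SE, edgeR adjusted p = 0.126) that did not pass. Birc5, of the passenger complex, was at 22.2, 32.9 and 3.33 CPM after A8B1-OVA, 7.8, 1.49 and 0.9 after saline, 0.994, 4.2 and 3.53 after molar-equivalent OVA and 9.86 and 9.06 after higher-dose OVA. Its replicate 3 overlapped with saline, and the change was 2.55 ± 0.86 (SE, edgeR adjusted p = 0.101). Cdca8 and Incenp did not pass either, at 1.51 ± 0.43 and 0.82 ± 0.28 (SE).

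Chromosome structure was the group with most calls in OT-II cells, 5 of 7, and these were the 5 condensin I subunits. Ncapg rose by 2.50 ± 0.58, Ncaph by 1.86 ± 0.43 and Ncapd2 by 0.87 ± 0.19 (SE). Smc2 was at 46.8, 48.1 and 46.7 CPM after A8B1-OVA, 30.2, 33.1 and 34.1 after saline, 34.1, 30.8 and 32.7 after molar-equivalent OVA and 36.1 and 34.7 after higher-dose OVA. The A8B1-OVA values were close together and above all other OT-II libraries, and this small change of 0.55 ± 0.10 (SE, edgeR adjusted p = 0.00688) was called. Smc4 was at 780.1, 677 and 870.04 CPM after A8B1-OVA, 498, 562 and 580.2 after saline, 595, 590.04 and 601 after molar-equivalent OVA and 759 and 781 after higher-dose OVA. It lay above saline and molar-equivalent OVA and overlapped with higher-dose OVA, with a change over saline of 0.52 ± 0.10 (SE, edgeR adjusted p = 0.00981). Top2a was at 26.2, 36.6 and 9.29 CPM after A8B1-OVA, 8.46, 4.41 and 6.85 after saline, 1.93, 11.6 and 9.08 after molar-equivalent OVA and 14.4 and 16.1 after higher-dose OVA, where all A8B1-OVA libraries were above saline but the change was 1.89 ± 0.57 (SE, edgeR adjusted p = 0.067). Mki67 was at 13.5, 20.6 and 4.46 CPM after A8B1-OVA, 5.31, 0.588 and 1.54 after saline, 0.905, 4.08 and 2.86 after molar-equivalent OVA and 8.35 and 14.2 after higher-dose OVA, with an overlap at replicate 3 and a change of 2.40 ± 0.76 (SE, edgeR adjusted p = 0.0799).

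Neither transcription factor passed in OT-II cells. Foxm1 was at 4.89, 6.94 and 3.13 CPM after A8B1-OVA, 2.72, 2.21 and 0.921 after saline, 1.76, 3.96 and 4.17 after molar-equivalent OVA and 1.85 and 3.59 after higher-dose OVA, with a change over saline of 1.37 ± 0.48 (SE, edgeR adjusted p = 0.114). Mybl2 was at 8.52, 12 and 5.55 CPM after A8B1-OVA, 3.57, 2.22 and 2.57 after saline, 0.32, 2.89 and 2.46 after molar-equivalent OVA and 4.94 and 4.21 after higher-dose OVA, with a change of 1.66 ± 0.57 (SE, edgeR adjusted p = 0.107), and its 3 A8B1-OVA libraries lay above all other OT-II libraries. Against molar-equivalent OVA Mybl2 passed, at 2.21 ± 0.58 (SE, edgeR adjusted p = 0.0426).

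Against molar-equivalent OVA as a whole, 19 members were higher in OT-II cells after A8B1-OVA, where 3.94% of all genes were, and 2, Kif23 and Pttg1, were lower, where 2.43% were. The count of 2 lower is also too small to be set apart from that share. The median log2 fold change was 1.84 beside -0.003 over all genes. Single libraries moved the OT-II counts, which are given without the share of all genes called in the same fits. Against saline the 20 called members became 7 without A8B1-OVA replicate 1, 4 without replicate 2 and 32 without replicate 3, and 7 and 5 without saline replicates 2 and 3. Without saline replicate 1, the library with raised myeloid and erythroid markers and the highest saline value for 40 of the 52 genes, 30 were called and the median log2 fold change was 2.11. Against molar-equivalent OVA the 21 became 6, 6 and 34 without A8B1-OVA replicates 1, 2 and 3, and 6, 5 and 9 without molar-equivalent replicates 1, 2 and 3. Between OT-II A8B1-OVA and saline, 3 of 9 myeloid markers and 1 of 2 CD8 lineage markers were called lower, and their part in the result was not tested.

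The other OT-II comparisons gave 0 called members by edgeR. No share of all genes stands beside the counts below by unadjusted p, by DESeq2, by library ranges or with a library left out. A8B1-OVA against higher-dose OVA had a median log2 fold change of 0.96 beside 0.003 over all genes, with 11 members at an unadjusted p under 0.05, 6 called by DESeq2 and 0.82% of all genes called higher by edgeR. Leaving out A8B1-OVA replicate 3 gave 2 called members. Higher-dose OVA against saline had a median of 0.63 beside -0.009, with 9 members at an unadjusted p under 0.05, 1 called by DESeq2 and 0.0203% of all genes called higher by edgeR. In 19 of the 52 both higher-dose libraries lay above all saline and molar-equivalent libraries. Molar-equivalent OVA against saline had a median of 0.04 beside -0.002, with 1 member at an unadjusted p under 0.05, 0 by DESeq2 and 0% of all genes called higher. Higher-dose against molar-equivalent OVA had a median of 0.69 beside -0.009, with 10 members at an unadjusted p under 0.05, 0 by DESeq2 and 0% of all genes called higher by edgeR.

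The 2 cell types were compared in 1 fit of all 23 libraries. After A8B1-OVA 47 of the 52 genes were higher in OT-I than in OT-II cells, where 12.2% of all 15235 genes were, and 1, Smc4, was lower, where 8.34% were. The median log2 difference was 2.29 beside -0.001 over all genes. Aurkb, Bub1, Kif18b and Pttg1 were the 4 without a call. The count of 48 became 21 without OT-I A8B1-OVA replicate 2 and 30 without OT-II A8B1-OVA replicate 3. After saline 4 members, Racgap1, Cenpe, Kif23 and the chromosome-arm kinesin Kif22, were higher in OT-I, where 8.36% of all genes were, and Smc4 was lower, where 7.11% were, with a median of 0.66 beside -0.018 over all genes. These 5 became 3 without OT-I saline replicate 1, 2 or 3 and 10 without OT-II saline replicate 1. After molar-equivalent OVA 6 were higher, against 8.91% of all genes, and 1 lower, against 7.06%, with a median of 1.11 beside 0.01, and 4 were called without OT-I molar-equivalent replicate 3. After higher-dose OVA 12 were higher, against 5.52% of all genes, and 1 lower, against 4.55%, with a median of 1.58 beside -0.022. These 13 became 20, 3 and 5 without OT-I higher-dose replicates 1, 2 and 3, and 2 and 3 without OT-II higher-dose replicates 2 and 3. The counts after saline and after molar-equivalent OVA are too small to be set apart from the shares over all genes. So is each count of 1 lower. The counts with a library left out are given without such shares.

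In each treatment Kif23 and Racgap1 were called higher and Smc4 lower in OT-I than in OT-II cells. Racgap1 showed the largest difference of the 52 genes, with log2 differences of 4.54 ± 0.41 (SE, edgeR adjusted p = 1.51e-07) after saline, 4.92 ± 0.42 after molar-equivalent OVA, 3.82 ± 0.47 after higher-dose OVA and 3.31 ± 0.39 after A8B1-OVA. The lowest OT-I library, higher-dose replicate 1 at 127 CPM, was above the highest OT-II library, at 28.7 CPM. That OT-I library was the one with 199 CPM of CD4 lineage markers. The part of those cells in its Racgap1, Kif23 and Smc4 levels was not tested. Kif23 differed by 1.23 ± 0.19 (SE, edgeR adjusted p = 9.6e-05) after saline and 2.16 ± 0.19 (SE, edgeR adjusted p = 1.51e-07) after A8B1-OVA. Smc4 differed by -0.80 ± 0.17 (SE, edgeR adjusted p = 0.00302) after saline and -0.97 ± 0.18 (SE, edgeR adjusted p = 0.000591) after A8B1-OVA.

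Whether the response itself differed was tested as an interaction. The log2 fold change of A8B1-OVA over saline was larger in OT-I than in OT-II cells for 50 of the 52 genes, with a median difference of 1.48 beside 0.018 over all genes. None of these differences passed in the edgeR fit without a replicate block, where 0.309% of all genes were called higher. At an unadjusted p under 0.05 there were 25 members, and DESeq2 called 4. The shares of all genes meeting these criteria, or called with a library left out, are not given, here or for the other interactions below. Cdk1 differed by 2.54 ± 0.92 (SE, edgeR adjusted p = 0.332) and Racgap1 by -1.22 ± 0.51 (SE, edgeR adjusted p = 0.435), the lowest. Without OT-I A8B1-OVA replicate 2 the median difference was 0.95, without OT-II saline replicate 1 it was 0.91, and without OT-I A8B1-OVA replicate 3 there were 3 called members. For higher-dose OVA over saline the median difference was 0.87 beside -0.006 over all genes, with 0 called, 2 at an unadjusted p under 0.05, 0 by DESeq2 and 0.00656% of all genes called higher by edgeR. That median was 0.36 without OT-II saline replicate 1. For A8B1-OVA over higher-dose OVA it was 0.64 beside 0.027, with 0 called, 1 at an unadjusted p under 0.05, 0 by DESeq2 and 0% of all genes called higher by edgeR, and 0.1 without OT-I A8B1-OVA replicate 2.

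The promoters of these genes are shown because most of the 47 called genes moved together in OT-I cells. Late cell cycle genes commonly carry a cell cycle genes homology region (CHR), TTTGAA, which the MuvB complex binds, and CCAAT boxes, which NF-Y binds. Both motifs were searched on both strands from 250 bases before to 50 bases after the start site in the RefSeq promoter table of GRCm38.p6, in which 43 of the 52 genes have a window. Ccna2, Cdc25c, Aurkb, Kif20a, Tpx2, Spc24, Incenp, Smc4 and Foxm1 do not. The sequences below run 5′ to 3′ on the strand of the gene from 120 bases before to 50 bases after the start, with capitals marking both motifs and their reverse complements. Cdk1 (chr10:69352863-69353032, minus strand), Plk1 (chr7:122159315-122159484, plus strand) and Cdc20 (chr4:118437294-118437463, minus strand) stand for called genes with both motifs. Ccnb1 (chr13:100786437-100786606, minus strand) is a called gene with CCAAT boxes and no match to TTTGAA in its window. Kif23 (chr9:61946750-61946919, minus strand) and Racgap1 (chr15:99651607-99651776, minus strand) have both motifs and were not called in OT-I cells.
Cdk1: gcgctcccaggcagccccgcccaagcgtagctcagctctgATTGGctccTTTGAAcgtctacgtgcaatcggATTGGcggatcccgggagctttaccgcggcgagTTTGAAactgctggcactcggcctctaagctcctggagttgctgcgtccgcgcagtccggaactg
Plk1: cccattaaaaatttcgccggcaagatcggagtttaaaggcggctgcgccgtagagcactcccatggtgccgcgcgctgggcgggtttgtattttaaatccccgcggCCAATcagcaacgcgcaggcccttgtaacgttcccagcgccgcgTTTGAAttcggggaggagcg
Cdc20: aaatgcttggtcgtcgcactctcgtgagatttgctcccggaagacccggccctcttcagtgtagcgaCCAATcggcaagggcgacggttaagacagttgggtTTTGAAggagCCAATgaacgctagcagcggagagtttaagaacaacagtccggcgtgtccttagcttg
Ccnb1: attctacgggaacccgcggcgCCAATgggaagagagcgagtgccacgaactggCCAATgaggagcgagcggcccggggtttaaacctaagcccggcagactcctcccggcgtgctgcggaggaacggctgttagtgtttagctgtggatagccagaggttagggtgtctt
Kif23: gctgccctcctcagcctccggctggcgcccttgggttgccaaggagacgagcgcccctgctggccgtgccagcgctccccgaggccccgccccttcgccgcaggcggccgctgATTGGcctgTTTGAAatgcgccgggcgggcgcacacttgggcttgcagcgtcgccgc
Racgap1: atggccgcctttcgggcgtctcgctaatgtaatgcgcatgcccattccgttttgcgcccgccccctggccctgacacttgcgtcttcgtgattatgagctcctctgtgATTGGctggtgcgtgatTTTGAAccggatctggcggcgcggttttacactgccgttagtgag

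A CHR was present in 32 of 43 genes, or 74.4%, against 20.2% of 27025 genes in the same table, and from 100 bases before the start in 69.8% against 9.23%. A CCAAT box was present in 74.4% against 41.1%, both motifs in 65.1% against 7.97%, and the CHR variant TTCGAA in 6.98% against 1.8%. The 44 CHR matches lay at a median position of -5 from the start, 32 of them within 50 bases on either side, and the 77 CCAAT matches at a median position of -67. Prc1 and Ect2 have 2 windows each, which hold the same matches at shifted positions, and both windows are counted. For 30 of the 43 genes, a stretch just after the start was found in sense in an annotated transcript of the gene. A CHR overlapped with a CCAAT box at 1 site. Of the 39 called genes with a window, 29 had a CHR, 29 a CCAAT box, 25 both and 6 neither. Of the 4 genes with a window and no call in OT-I cells, 3 had both and 1 neither. In Cdk1 the CHR matches begin at positions -71 and -15, in Cdc20 at -18, and in Plk1, Racgap1 and Kif23 at 31, 6 and 3, after the start. A match is a description of the letters and no measurement of binding, which these data do not include.

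**Figure D5:**
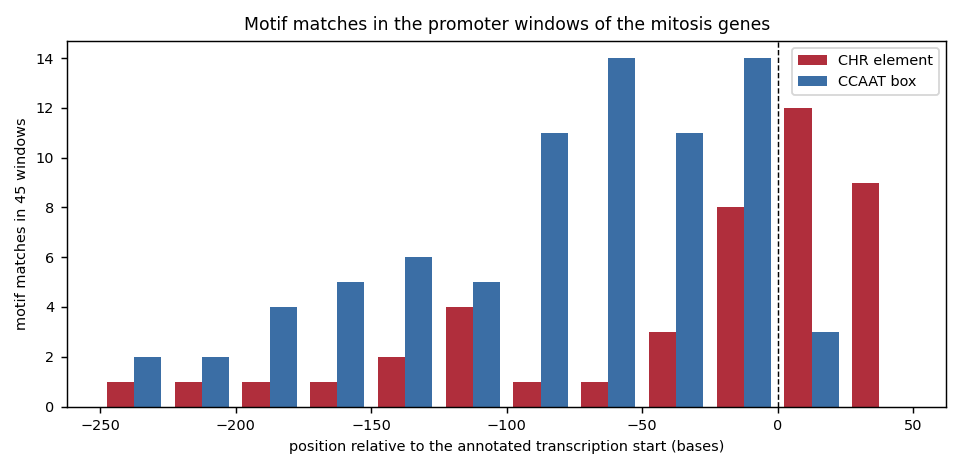
Positions of CHR and CCAAT box matches relative to the start site, in bases, over 45 promoter windows of 43 genes, counted in bins of 25 bases. Both windows of Prc1 and of Ect2 are counted. CHR matches gather near the start, with a median at -5, and CCAAT matches before it, with a median at -67.

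Other cell cycle genes outside the 52 give the setting. Of 50 further spindle, kinetochore and CDK regulators, 36 rose and 0 fell in OT-I cells after A8B1-OVA against saline, with a median log2 fold change of 1.68, and 11 rose and 0 fell in OT-II cells, with a median of 1.00. Cdca5 (sororin), which protects cohesin, rose by 3.32 in OT-I cells and Aspm, a spindle pole protein, by 4.41. Over all genes tested against saline, 7.07% were called higher and 4.43% lower in OT-I cells and 4.4% higher and 2.88% lower in OT-II cells. The next counts are too small to be set apart from these shares. Of 16 subunits of the anaphase-promoting complex itself 2 rose in OT-I cells, with a median of 0.22, and 2 fell in OT-II cells, with a median of 0.10. Among 12 cohesin genes 2 rose and 1 fell in OT-I cells, with a median of -0.03. The risers were the cleaved ring subunit Rad21, by 0.74, and the acetyltransferase Esco2, by 2.47. In OT-II cells no cohesin gene was called by edgeR, and their median was -0.01.

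Of the 3 condensin II subunits, Ncapg2 rose in both cell types, by 2.50 in OT-I and 1.56 in OT-II, and the other two were not called. Among 12 genes of MuvB, E2F4 and the Rb family 1 rose and 1 fell in each cell type, namely Tfdp1 by 1.19 and 1.08 and E2f5 by -0.61 and -0.74, counts that are also too small to be set apart from the shares over all genes. Upstream of mitosis, 9 of 14 G1 cyclins, CDKs and E2F genes rose in OT-I and 4 in OT-II cells, with medians of 1.09 and 0.69, among them E2f1, an activator of S phase genes, by 1.59 and 1.76. Of 27 DNA replication genes 22 rose in OT-I and 15 in OT-II cells, with medians of 1.67 and 0.83, among them Mcm3 of the replicative helicase by 1.34 and 1.10 and the ribonucleotide reductase subunit Rrm2 by 3.19 and 2.38. In these lists the medians over all tested genes were again -0.021 in OT-I and -0.011 in OT-II cells.

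Estimated counts of some of these genes may include reads of similar transcripts. Of the 52, 12 share 10% or more of their 31-base words with another annotated gene, most of all Ccnb1 with 27.8% (its pseudogene Ccnb1-ps), Cdc20 with 26.74% (Gm7856), Kif20a with 26.73% (its neighbour Cdc23), Ube2c with 25.29% (Tnnc2), Mybl2 with 21.05% (Gm3320) and Plk1 with 18.72% (Plk-ps1), and their levels are less certain.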

How the data were processed

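RNA of sorted T cells, polyA-selected and amplified with SmartSeq chemistry per the labels' protocols, was sequenced and quantified by the authors. The deposited table holds estimated counts per gene, made with bcl2fastq and kallisto 0.46.1 on GRCm38 per the submitters' processing notes. The values are whole numbers, while the summing of transcripts to genes, the annotation release and the use of strand are not stated, so genes that share sequence are less certain. Depth was 26584040 to 73503642 counts per library, and floors of 3 counts cover counting error only. Groups were read from the labels and no 2 libraries held identical counts.

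From the deposited counts, edgeR 4.0.16 (R 4.3.3, limma 3.58.1) fitted quasi-likelihood models with TMM scaling and filterByExpr (minimum count 10, total 15), 1 per cell type and 1 of all 23 libraries for the 7 comparisons between cell types. All 52 genes passed the filter in each fit. Calls had a Benjamini-Hochberg adjusted p under 0.05 over all tested genes, in 19 comparisons, and standard errors were taken from the log2 fold change and the F statistic. CPM uses the TMM factors of the fit of all libraries. DESeq2 1.42.0, other scaling, no filter, a replicate block, fewer libraries and leaving out each library were alternatives. The test was checked on simulated counts. Python 3.11.15 with matplotlib 3.10.9 drew the figures. Sequences came from RefSeq (GRCm38.p6), and joined exon lengths and shared words from GENCODE M21, which holds 21806 of the 21900 identifiers.

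The 52 genes, their roles, the other lists, the markers and the 18 genes given in every library were chosen with earlier results of these data known. Also named were the 5 highest and 5 lowest members of a comparison, members called against the majority, and up to 4 genes of each other list by adjusted p. Racgap1, Kif23, Smc4, Bub1 and Cenpe were given in every library, or in every OT-II library, after their values were seen. Same-numbered libraries were not taken as paired.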

Additional observations from a re-analysis of the deposited data

How the results depend on the processing

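The OT-I comparisons of A8B1-OVA with saline and with molar-equivalent OVA stayed within 1.5 times their 47 called members under each alternative run, at 44 to 48 and 45 to 47 when single libraries were left out, and 44 and 45 of the 47 members were called in all of these fits. In the 12 comparisons within a cell type, no gene's called change reversed its sign under any alternative. This was not tallied for the 7 comparisons between cell types. Other counts moved, and the cause was not tested beyond the removal of libraries itself. Shares of all genes called in the alternative runs are not given beside the counts in this section. Leaving out single libraries gave 0 to 39 called members for OT-I A8B1-OVA against higher-dose OVA, 3 to 24 for OT-I higher-dose OVA against saline, 0 to 8 for OT-I higher-dose against molar-equivalent OVA, 4 to 32 and 5 to 34 for OT-II A8B1-OVA against saline and molar-equivalent OVA, 0 to 2 for OT-II A8B1-OVA against higher-dose OVA, and 0 to 3 for the difference between the responses to A8B1-OVA over saline. Between OT-I and OT-II it gave 21 to 49 after A8B1-OVA, 3 to 10 after saline, 4 to 7 after molar-equivalent OVA and 2 to 20 after higher-dose OVA.

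DESeq2 called 41 members for OT-I A8B1-OVA against higher-dose OVA, 27 for OT-I higher-dose against molar-equivalent OVA, 34 each for OT-II A8B1-OVA against saline and molar-equivalent OVA, 6 for OT-II A8B1-OVA against higher-dose OVA, 1 for OT-II higher-dose OVA against saline, 4 for the response difference to A8B1-OVA, and 13 and 26 between cell types after molar-equivalent and higher-dose OVA. Fits of only the libraries compared called 4 for OT-I A8B1-OVA against higher-dose OVA, 38 for OT-I higher-dose OVA against saline, 0 for OT-I higher-dose against molar-equivalent OVA, 11 for OT-II A8B1-OVA against saline, and 8 and 36 between cell types after saline and higher-dose OVA. Without the 5 libraries of raised marker sums these became 0, 6 and 0 for the 3 OT-I comparisons with higher-dose OVA, and 9 and 23 between cell types after saline and higher-dose OVA. With 2 or 3 libraries a group, many members lie near the threshold, and the floor of 0.0408 to 0.113 CPM limits Bub1, Kif18b and Aurkb, each at 0 in some OT-II libraries.

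Same-numbered libraries did not deviate together within a cell type, with a median residual correlation of -0.014 over 18 pairs in OT-I and -0.005 over 15 in OT-II, and across cell types it was 0.128 over 11 pairs, 6 of them over 0.1 and the lowest at -0.026, against -0.018 over 22 pairs of different numbers, 1 of them over 0.1. The values across cell types are a hint from the data, not the design, that libraries share something by number. As not every pair was over 0.1 and the labels tie the numbers to no shared batch, the numbers were not used as pairs. A replicate block gave 12 and 10 called members for OT-II A8B1-OVA against saline and molar-equivalent OVA, 5 for the response difference to A8B1-OVA, and 16, 25 and 39 between cell types after saline, molar-equivalent and higher-dose OVA.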

Other observations

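Racgap1 differed between the cell types whatever the treatment, at 127 to 265 CPM in OT-I and 2.56 to 28.7 CPM in OT-II libraries. The 127 CPM belongs to OT-I higher-dose replicate 1, the OT-I library with raised CD4 lineage markers. Racgap1 was looked at further after these values were seen. The gene lies on the minus strand at chr15:99620496-99651656 in GENCODE M21 (GRCm38). Of 14 protein-coding genes of the table within 250 kb, 10 were tested between OT-I and OT-II saline libraries. Of these 1, Cox14, was called, and it was lower in OT-I, with a log2 difference of -0.58 and an edgeR adjusted p of 0.043. The log2 differences of the tested neighbours ran from -1.03 to 0.65, against 4.54 ± 0.41 (SE) for Racgap1. What sets the Racgap1 level apart was not tested.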
